A study of Arabidopsis thaliana with 4 samples.

Results

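Type 1 lipid transfer proteins are small secreted proteins that carry fatty acids and other lipids in a pocket held together by disulfide bonds. Transcripts of 8 of these genes, LTP1 to LTP6, LTP8 and LTP12, were compared between air and ethylene in dark-grown Arabidopsis thaliana seedlings. All seedlings were of the srt1srt2 double mutant, 3 days old, and kept for 4 hours in air or in 10 ppm ethylene. Wild-type seedlings were not analysed here, so the calls apply to this mutant only. The genes were taken by locus from a deposited table of 33538 entries, of which 20786 name a gene and were tested by the authors. All 8 were found, and 7 of them had enough reads to be tested. At a q of 0.05 or less in the authors' Cuffdiff test, LTP1, LTP3 and LTP4 were lower in ethylene, LTP5 was higher in an entry shared with a neighbouring gene, and LTP2, LTP6 and LTP8 were not called. That makes 4 of 7 tested members called, where 11.3% of all tested entries that name a gene were called, 4.79% higher and 6.5% lower. LTP12 was listed at 0 in both conditions.

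In plants, type 1 lipid transfer proteins accumulate mainly in epidermal cell walls, and they have been linked to the cuticle, the waxy layer that seals the shoot surface, and to defence against microbes. Several respond to abscisic acid, drought or cold. In Arabidopsis, LTP2 is known for its part in holding the cuticle to the cell wall of dark-grown hypocotyls. Ethylene is a gaseous hormone under which the hypocotyl of a dark-grown seedling stays short and thick.

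Both groups were the srt1srt2 double mutant in the Col background, mutated in the sirtuin genes SRT1 and SRT2, per the labels. Seedlings were 3 days old, grown in darkness at 24 °C in hydrocarbon-free air, and then kept for 4 hours in that air or in air holding 10 ppm ethylene. There were 2 libraries in each group, which the authors pooled into 1 value per gene and condition. Nothing in the labels states that libraries of 1 condition were grown separately, so the spread behind the authors' test may be technical. Values of single libraries, wild-type seedlings and single-mutant seedlings were not analysed here, and the sheet that holds the table is named for srt1 alone. Alleles are not named in the labels.

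Values are FPKM, fragments scaled by transcript length and by the number mapped, so levels can be set beside each other between genes. Cuffdiff is software that infers transcript abundance from aligned reads and tests for differences, and a gene counts as called at a deposited q of 0.05 or less. The depth of the libraries is unknown. SRT1 had 3.88 FPKM in air against 3.23 in ethylene, and SRT2 had 1.92 against 2.09, neither called (q = 0.735 and q = 0.937 from Cuffdiff). Of the seedling markers, PORA, which is abundant in darkness, had 397 FPKM in air against 583 in ethylene, while the light-induced ELIP1 and ELIP2 were at 19.2 and 11.3 FPKM and at 7.49 and 4.57 FPKM. PORA was called higher and ELIP1 lower, neither of them with the normal reference described below, and ELIP2 was not called. All 5 epidermal marker genes were detected. Whole seedlings were used, so fewer epidermal cells and less RNA per cell cannot be told apart in any value below.

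All 8 members have 2 exons in the annotation and encode proteins of 112 to 119 residues. The members sit in part as neighbours, and the 250 bases before the annotated start of 4 of them are shown because they form 2 neighbouring pairs, of which LTP3 and LTP4 were both lower while of LTP2 and LTP1 only LTP1 was called. LTP2 and LTP1 lie head to tail on chromosome 2, 890 bases apart. LTP4 and LTP3 lie on chromosome 5 and are transcribed away from each other, with 2996 bases between their starts. Coordinates, starts and sequences are those of RefSeq on the TAIR10.1 build. The windows are chr5:23928704-23928953 (plus strand), chr5:23925958-23926207 (minus strand), chr2:16127926-16128175 (plus strand) and chr2:16130040-16130289 (plus strand), each written 5′ to 3′ up to the base before the start. Capitals mark matches, on either strand, to 7 short motifs named after the sequences.
LTP3: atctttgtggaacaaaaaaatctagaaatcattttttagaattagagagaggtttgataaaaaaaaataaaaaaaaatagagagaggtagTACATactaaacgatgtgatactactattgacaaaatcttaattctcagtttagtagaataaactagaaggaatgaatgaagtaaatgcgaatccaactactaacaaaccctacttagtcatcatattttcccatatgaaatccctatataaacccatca
LTP4: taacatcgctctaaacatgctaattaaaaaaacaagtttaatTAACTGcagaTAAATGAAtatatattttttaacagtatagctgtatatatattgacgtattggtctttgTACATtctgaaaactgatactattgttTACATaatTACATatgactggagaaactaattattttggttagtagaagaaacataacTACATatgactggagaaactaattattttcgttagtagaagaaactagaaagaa
LTP2: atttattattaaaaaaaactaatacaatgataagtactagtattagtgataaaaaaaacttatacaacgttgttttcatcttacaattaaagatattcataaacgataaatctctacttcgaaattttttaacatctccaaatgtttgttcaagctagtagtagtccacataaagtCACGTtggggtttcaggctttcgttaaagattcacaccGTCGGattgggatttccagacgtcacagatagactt
LTP1: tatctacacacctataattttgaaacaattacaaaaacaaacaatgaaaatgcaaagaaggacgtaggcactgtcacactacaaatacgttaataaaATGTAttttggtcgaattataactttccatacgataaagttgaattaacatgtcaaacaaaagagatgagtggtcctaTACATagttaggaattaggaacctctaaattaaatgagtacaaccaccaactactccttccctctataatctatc

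Among the motifs were the abscisic acid response core ACGTG, the G-box CACGTG that contains it, and the ethylene response factor GCC box GCCGCC. The others were the cold and drought response core CCGAC, a core of EIN3 binding sites ATGTA, the MYB site TAACTG, and TAAATGNA. The last is a loose form of the epidermal L1 box in which N is any base. The LTP3 window held 1 ATGTA match and none of the others. LTP4 held 4 ATGTA matches, a TAAATGNA match and a MYB site. The TAAATGNA match has A at N, and whether it acts as an L1 box was not tested. In the LTP1 window there were 2 ATGTA matches, and the LTP2 window held 1 ACGTG and 1 CCGAC match. Over the 8 members, ATGTA was present in 6 windows, against 52.0% of the 27443 windows of the same length before protein-coding genes. ACGTG and CCGAC were present in 2 member windows each, against 22.9% of all windows for ACGTG and 3285 of the 27443 for CCGAC. TAAATGNA and TAACTG were present in 1 each, against 9.91% and 8.12%. Neither GCCGCC (1.87% of all windows) nor CACGTG (6.49%) was found in a member window. The LTP4 window carries an exact repeat of 29 bases, shown because each copy opens with an ATGTA match on the reverse strand. The copies begin 104 and 54 bases before the start, and 99 of the 27443 windows (0.361%) held an exact repeat at least that long.
LTP4 repeat: TACATatgactggagaaactaattatttt

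LTP3 and LTP4 showed the largest falls. Both have been described as responsive to abscisic acid and stress, and LTP3 is a known target of the factor MYB96. LTP3 (AT5G59320) was at 580 FPKM in air and 157 FPKM in ethylene, a 3.70-fold fall. The ratio on the log2 scale was -1.89 (standard error 0.21), and the deposited q from Cuffdiff with Benjamini-Hochberg adjustment was 0.000878. LTP4 (AT5G59310) was at 549 FPKM in air and 208 FPKM in ethylene, a 2.64-fold fall with a log2 ratio of -1.40, a standard error of 0.25 and the same q. In air the level of LTP3 was 1.06 times that of LTP4, and in ethylene it was 0.753 times that of LTP4. Both genes, like LTP5, were at the smallest p the authors' test gave, 5e-05, which 1200 tested entries share, so they cannot be ranked by p. Standard errors here were taken as the log2 ratio divided by the deposited test statistic.

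Closely related members could exchange reads in the authors' counting, which makes the likeness of each pair relevant to its values. LTP3 and LTP4 were the most similar pair, with 86.7% identity over 339 aligned coding bases, and LTP1 and LTP2 followed with 82.4% over 357. The other pairs lay between 54.6% and 67.8%, and the median of all 28 pairs was 60.4%. The longest stretch that LTP3 and LTP4 transcripts have in common is 44 bases, from coding base 259 of LTP3 and base 250 of LTP4. For LTP1 and LTP2 transcripts it is 40 bases, and within the coding part 27 bases from the start codon. The 44-base stretch and the 27-base coding stretch are shown because a read within them cannot be assigned to 1 gene. The 40-base stretch of LTP1 and LTP2 transcripts is not printed.
LTP3/LTP4: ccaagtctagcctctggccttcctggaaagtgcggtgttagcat
LTP1/LTP2: atggctggagtgatgaagttggcatgc
No stretch of 50 bases in any of the 8 transcripts occurs more than once in the genome. Read length and the treatment of reads with several matches are not stated in the labels.

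LTP2 was by far the most abundant member. LTP2 (AT2G38530, chr2:16128176-16129399) was at 5293 FPKM in air and 6942 FPKM in ethylene, which placed it 8th and 6th among the 33214 entries that name a gene. It was not called. On the log2 scale the ratio was 0.39, with a 95% interval from -0.06 to 0.85, and the deposited Cuffdiff q was 0.113. The interval, taken from the deposited statistic, holds both no difference and a moderate rise. Before adjustment the deposited Cuffdiff p was 0.01715. That p is on a tighter scale than the statistic, and which scale was intended was not settled. LTP2 held 75.5% of the summed FPKM of the 8 members in air and 86.6% in ethylene.

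LTP1, the neighbour of LTP2, was lower in ethylene. LTP1 (AT2G38540, chr2:16130290-16131240) encodes a cell wall protein that can bind calmodulin. It was at 390 FPKM in air and 257 FPKM in ethylene, a 1.52-fold fall. On the log2 scale the ratio was -0.60, with a 95% interval from -1.01 to -0.19 and a deposited Cuffdiff q of 0.00233. Its call is the least secure of the 4: when the deposited statistic was read against a standard normal curve (the normal reference) and adjusted over all tested entries, q was 0.0647. LTP2 was at 13.6 times the level of LTP1 in air and 27.0 times in ethylene. Whether the changes of LTP1 and LTP2 differ from each other was not tested.

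**Figure D1:**
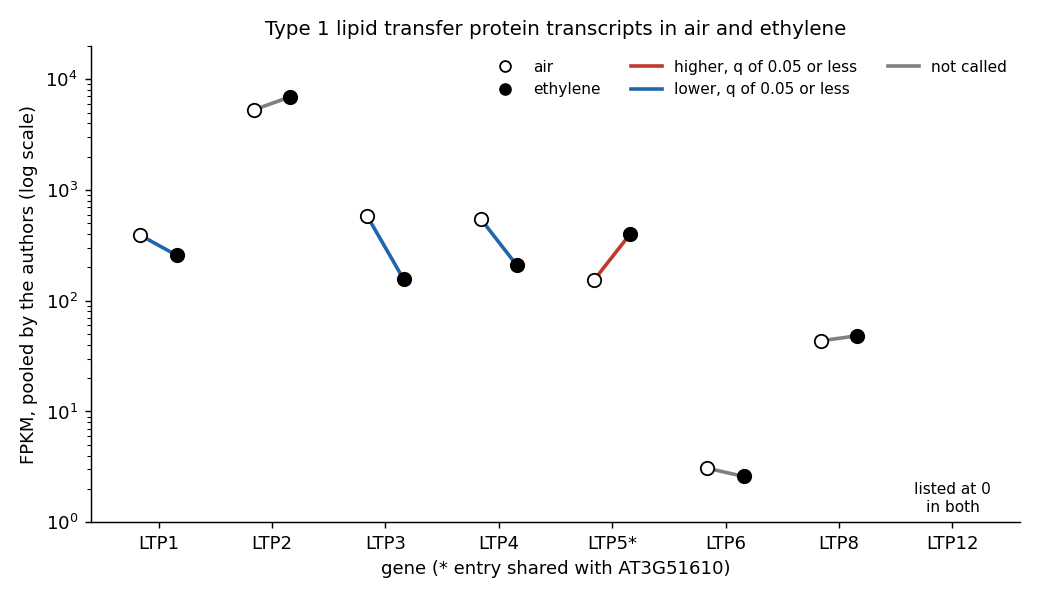
FPKM of each member, as pooled by the authors from 2 libraries per condition, on a log axis, with air as open and ethylene as filled circles and the joining line coloured by the deposited call. LTP2 stands above all others at 5293 and 6942 FPKM, LTP3 and LTP4 fall from near 580 and 549 to 157 and 208, and LTP5, in an entry shared with AT3G51610, goes from 154 to 403.

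The only called rise among the members was in the entry of LTP5. LTP5 (AT3G51600, chr3:19138338-19139423) has been studied in pollen tube growth. The entry was at 154 FPKM in air and 403 FPKM in ethylene, a 2.62-fold rise. On the log2 scale this was 1.39, with a 95% interval from 0.96 to 1.81 and a deposited Cuffdiff q of 0.000878. The entry also names AT3G51610 (NPU), a membrane protein gene that takes part in pollen wall formation. NPU lies on the same strand, just before LTP5, with 54 bases between the annotated spans. The table gives neither gene an entry of its own, so the rise cannot be assigned to LTP5 or to NPU. For the same reason the 250 bases before LTP5, which overlap NPU exons, are not shown. Over the coding part LTP5 was 67.8% identical to LTP1 and 65.5% to LTP2, the closest pairs after LTP3/LTP4 and LTP1/LTP2. It was 59.8% identical to its neighbour LTP12.

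LTP12, the other neighbour of LTP5 on chromosome 3, was listed at 0 FPKM in both conditions and was not tested. LTP12 (AT3G51590, chr3:19135619-19136675) lies 1662 bases from LTP5 on the same strand and is known from the tapetum, the nurse tissue of the anther. None of the 5 tapetum markers reached 1 FPKM in either condition, and A9, MS1 and DYT1 were listed at 0 in both.

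**Figure D2:**
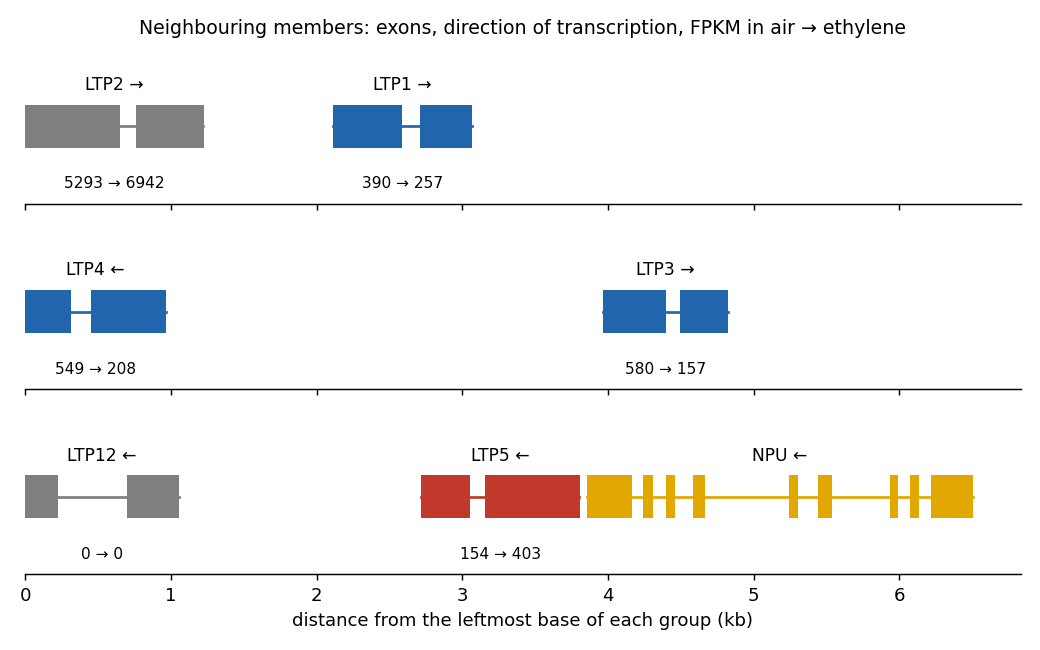
Exons (boxes) of the neighbouring members on RefSeq gene models, against the distance in kb from the leftmost base of each group, coloured blue for lower, red for higher and grey for not called or not tested, with NPU in yellow. Arrows give the direction of transcription and the numbers below are FPKM in air and in ethylene; LTP5 and NPU lie 54 bases apart and share the entry at 154 and 403 FPKM.

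LTP8 and LTP6, which are not next to another member, were not called. LTP8 (AT2G18370, chr2:7980532-7981868) was at 43.5 FPKM in air and 48.3 FPKM in ethylene, with a q of 0.753 in the deposited Cuffdiff test. The 95% interval of its fold, 0.770 to 1.60, includes changes in both directions. LTP6 (AT3G08770, chr3:2664069-2664888) was at 3.07 FPKM in air and 2.59 FPKM in ethylene, with a q of 0.900. Its interval ran from 0.239 to 2.98, which also includes a rise as large as that of the LTP5 entry.

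**Figure D3:**
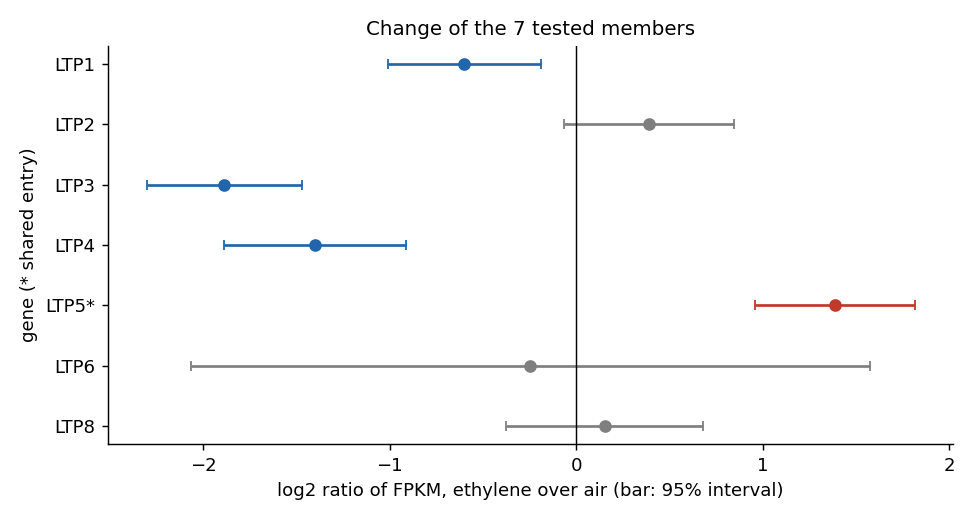
Log2 ratio of ethylene to air FPKM for the 7 tested members, with bars for the 95% interval from the deposited statistic. The intervals of LTP1, LTP3 and LTP4 lie below 0 and that of LTP5 (shared entry) above it, while those of LTP2, LTP6 and LTP8 span 0.

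The order of the members by level was partly rearranged. In air it ran LTP2, LTP3, LTP4, LTP1, LTP5, LTP8, LTP6 and LTP12. In ethylene LTP2 stayed at the top, the LTP5 entry came next, and LTP1, LTP4, LTP3, LTP8, LTP6 and LTP12 followed. The values used here carry no error for a level within a condition, so which neighbours in this order differ beyond their spread was not tested. LTP3 went from rank 173 to rank 939 among the entries that name a gene, LTP4 from 187 to 658 and LTP1 from 285 to 489. The LTP5 entry went from rank 965 to rank 253.

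The summed level of the family hides these movements because LTP2 outweighs the rest. The 8 members summed to 7012 FPKM in air and 8018 FPKM in ethylene, a ratio of 1.14. Without LTP2 the sum went from 1719 to 1076 FPKM, a ratio of 0.626, and without LTP2 and LTP5 from 1565 to 673 FPKM, a ratio of 0.430. As a share of the FPKM of all entries that name a gene, the members held 0.748% in air and 0.860% in ethylene. Unless LTP5 is left out, these sums and shares include its entry, part of which may belong to NPU. Without LTP5 alone the sum went from 6858 to 7615 FPKM, a ratio of 1.11.

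Abundant genes were called more often in the table as a whole. At a mean of 100 FPKM or more, 24.8% of 1615 tested entries were called, 10.3% higher and 14.5% lower, and 4 of the 5 members at that level were. With the normal reference, 1 member was higher and 2 were lower, where 5.78% of all tested entries were called, 2.57% higher and 3.2% lower. The genes were selected with results of these data known, so these counts describe the members and carry no test. The median log2 change, taken as log2((ethylene FPKM + 1)/(air FPKM + 1)), was -0.18 over the 7 tested members and -0.09 over all 8, beside 0.0078 over all tested entries. The median of the tested members is the value of LTP6, a gene of low level, and the changes ran from -1.88 in LTP3 to 1.38 in the LTP5 entry.

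**Figure D4:**
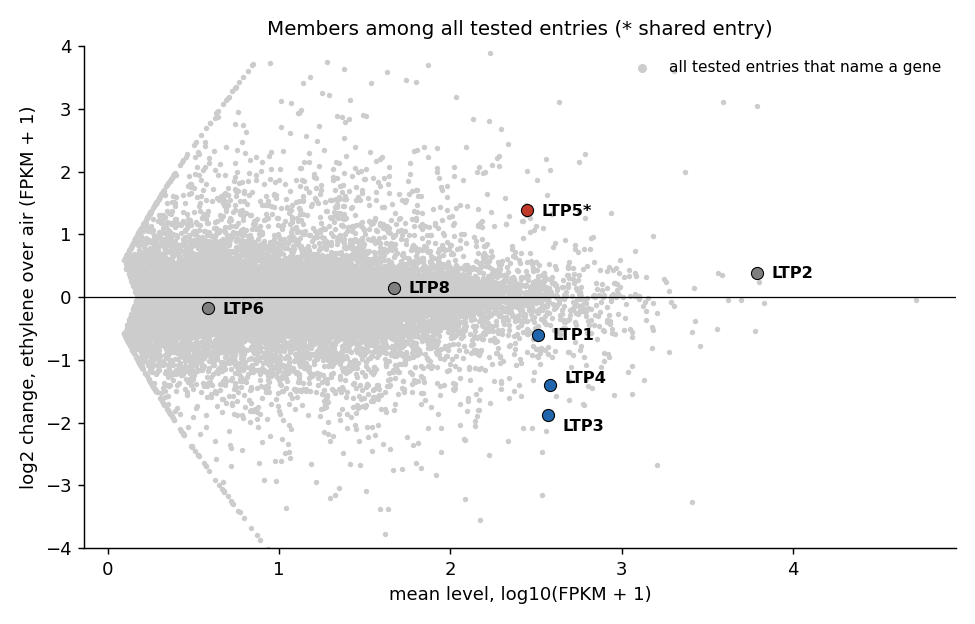
Log2 change of ethylene over air on the FPKM + 1 scale against mean level for all 20786 tested entries that name a gene (grey), with the 7 tested members in blue (lower), red (higher) or dark grey (not called). A further 105 entries lie beyond the axis limit of 4 in size; LTP3 and LTP4 lie at -1.88 and -1.39, LTP1 at -0.60 and the LTP5 entry at 1.38.

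The other listed type 1 genes added no calls. With 3 tested, where 11.3% of all tested entries that name a gene were called, this count says little. Of these 7 (LTP7, LTP9, LTP10, LTP11, LTP13, LTP14 and LTP15), 3 were tested and 4 were listed at 0 in both conditions. LTP7 had 117 FPKM in air against 99.6 in ethylene (deposited Cuffdiff q = 0.605), and LTP10 at 2.26 and 3.78 (q = 0.643). LTP11 was below 1 FPKM in both conditions.

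The GPI-anchored lipid transfer proteins, which are held at the cell surface by a lipid anchor and some of which take part in wax export, were mostly lower. Of 6 listed, 5 were tested, 4 were called lower and none higher, where 6.5% of all tested entries were called lower. These 4 had a mean of 100 FPKM or more, a level at which 14.5% of tested entries were called lower. The fifth, LTPG3, at 0.628 FPKM in air and 2.03 in ethylene, was not called (Cuffdiff q = 0.338). LTPG2 went from 208 to 70.6 FPKM, LTPG1 from 629 to 345, LTPG6 from 192 to 105 and LTPG5 from 292 to 195 FPKM. The list median was -0.87 on the log2(FPKM + 1) scale over its tested genes, beside -0.18 for the type 1 members. With the normal reference for the statistic 3 of these falls were called, all but LTPG5, where 3.2% of all tested entries were called lower.

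Genes that make and export the cuticle were also lower in part. Of 19 entries for enzymes and transporters, 18 were tested, 12 were called lower and none higher, with a list median of -0.60. Over all tested entries that name a gene, 6.5% were called lower and 4.79% higher. The 12 include the entry of CER1, which also names AT1G02190, so that fall cannot be assigned to CER1 alone. WSD1, which makes wax esters, went from 43.4 to 9.79 FPKM. CER3, an enzyme of alkane formation, went from 154 to 54.2, CER4, a fatty acyl reductase, from 8.58 to 3.19, and CER6, which elongates fatty acids for wax, from 694 to 319 FPKM. With the normal reference 8 falls were called, where 3.2% of all tested entries were called lower, and that of CER4 was not among them. Among 10 regulators of epidermis and cuticle, 7 were tested, 2 were called lower and none higher. MYB16, which promotes cuticle formation, went from 15.7 to 3.31 FPKM, and MYB30, an activator of fatty acid elongation, from 50.1 to 34.1. The fall of MYB30 was not called with the normal reference. MYB96 had 33.8 FPKM in air against 27.2 in ethylene, with no call (Cuffdiff q = 0.251).

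Epidermal markers moved with these falls in part. Their summed level was 720 FPKM in air against 439 in ethylene, and PDF1 and FDH held most of it in both conditions. Of the 5, 2 were called lower and none higher, where 6.5% of all tested entries were called lower. The 2 were PDF1, a cell wall protein gene of the outer layer, which went from 281 to 110 FPKM, and FDH, which is also in the cuticle list, from 344 to 233. ATML1 and PDF2, which specify the epidermis, had 43.7 and 44.0 FPKM in air against 54.9 and 34.3 in ethylene. Neither was called, nor was ACR4, which had 6.88 FPKM in air against 5.85 in ethylene. With the normal reference only PDF1 of the 5 was called, where 3.2% of all tested entries were called lower. The part of these markers in the falls of LTP1, LTP3 and LTP4 was not tested.

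**Figure D5:**
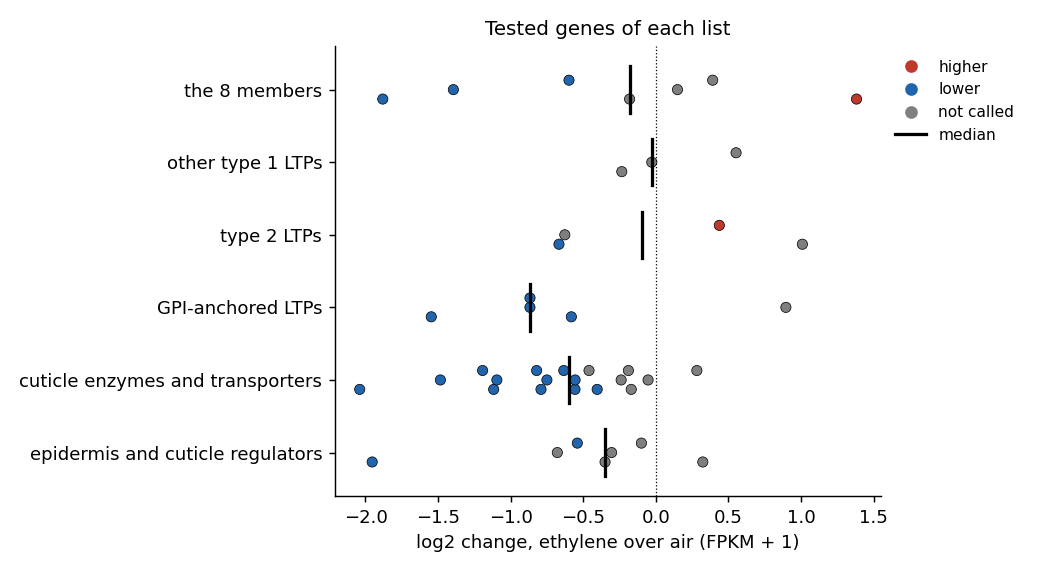
Log2 change of ethylene over air on the FPKM + 1 scale for each tested gene of 6 lists, 1 point per gene (vertical offsets only separate points), coloured blue for lower, red for higher and grey for not called, with a black bar at each list's median. The type 1 members spread from -1.88 to 1.38, while most GPI-anchored and cuticle genes lie below 0, with medians of -0.87 and -0.60.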

How the data were processed

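Transcript levels were measured by RNA sequencing in 4 libraries of srt1srt2 seedlings, 2 per condition. Reads were aligned with TopHat2 2.0.9 and compared with Cuffdiff 2.2.1 on TAIR10, per the submitters' processing notes. No label names the annotation, strandedness or scaling method. The authors deposited 1 pooled FPKM value per gene and condition. Their test is deposited as a p-value and a q-value per entry, and a recomputed Benjamini-Hochberg q differed from theirs by at most 5.25e-07. The deposited test statistic is a score for each log2 ratio. Turned into a normal quantile, p was typically 1.43 times this statistic (median). It was not settled which scale was intended, so standard errors and intervals come from the statistic, the wider reading. Of 47867 values above 0, 397 were under 0.001 FPKM, so values are not whole multiples of 1 fragment and depth was not recovered. The 324 entries naming no gene, holding 24.0% of all FPKM in air and 22.8% in ethylene, were left out.

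For each locus the entry naming it alone was preferred, then the one of highest mean. The members and lists were chosen with earlier results of these data known. Genes named are all members, SRT1, SRT2, the fixed markers, and from each other list at most 4 called genes of largest change, or with none called the 2 highest. MYB96, LTP11, LTPG3, EARLI1 and CER1, as well as the genes at 0 or not tested, were named after their values were seen. Gene models and sequences come from RefSeq on TAIR10.1, which held all 85 listed loci. Of 31743 single-gene entries with a RefSeq locus, 31742 overlapped its span. Calculations used Python 3.11.15 with pandas 2.3.3, SciPy 1.17.1 and Biopython 1.88, and the adjustment was tested on simulated data. Alternatives were a normal reference for the statistic, a q of 0.01, another adjustment, pseudocount, low-value filter, scaling and choice of entry. Unused columns of per-sample values numbered 0.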

Additional observations from a re-analysis of the deposited data

How the results depend on the processing

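Leaving out the entry that LTP5 shares with NPU, tried after seeing the data, left 0 members called higher. Leaving out LTP2 turned the summed level from a ratio of 1.14 to 0.626, by construction, since LTP2 holds most of the sum. The count of 3 members lower went to 2 with the normal reference for the statistic, which lost LTP1. A q of 0.01 and adjustment over entries at 1 FPKM or more gave 3 lower and 1 higher, as before. The median log2 change over all 8 members ranged from -0.12 to -0.09 across the pseudocount, scaling and summed-entry alternatives. It was -0.18 over the 7 members left by the low-value filter, and also over the 7 left without the shared entry. The scaling factor of ethylene over air was -0.0034 on the log2 scale for upper quartiles and -0.0086 for sums over named entries. Of the 28 member-by-alternative values of single genes, 27 kept their direction and side of the threshold, and the exception was LTP1 above. Pseudocounts and scaling change the size only, since the deposited q cannot be recomputed under them. Among these 28 values, only those with the normal reference could have changed side of the threshold. Replicates could not be left out, nor libraries compared with each other, because each condition has 1 pooled value. No paired analysis was possible because the deposited columns pool the libraries of each condition and carry no replicate number. Depth is unknown, so how far it limits LTP6, at about 3 FPKM, and LTP12, listed at 0, cannot be given.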

Other observations

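Other lipid transfer families moved in several directions. Of 12 genes listed as type 2 lipid transfer proteins, a family with a smaller protein, 4 were tested, with 1 called higher and 1 lower. Over all tested entries that name a gene, 4.79% were called higher and 6.5% lower. AT3G18280 went from 207 to 281 FPKM and AT1G48750 from 190 to 119 FPKM, with deposited Cuffdiff q values of 0.0343 and 0.0184. Neither was called with the normal reference for the statistic. In the tandem cluster of AZI1 and EARLI1, 7 of 9 genes were tested, 1 was called higher and 2 lower. By direction alone, 2 of the 7 lay above 0 and 5 below. EARLI1, at 0.0293 FPKM in air and 6.45 in ethylene, was not called (Cuffdiff q = 0.504). AZI1, which acts in systemic defence priming, rose from 11.1 to 313 FPKM, while AT4G12520 went from 400.2 to 225 FPKM and AT4G12510 from 100.3 to 66.3 FPKM. With the normal reference AT4G12510 was no longer called. DIR1, a lipid transfer protein of systemic acquired resistance, had 29.8 FPKM in air against 27.4 in ethylene, and its neighbour DIR1-LIKE at 31.2 and 16.9. Neither was called (Cuffdiff q = 0.855 and q = 0.0740).

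Genes with the most similar pair of values were listed for LTP2 and LTP3, by distance over the 2 pooled values as log2(FPKM + 1). With only 2 values per gene this describes level and change, and no finer pattern. Nearest to LTP2 were GASA4 (distance 0.137, at 5809 and 6825 FPKM), AT4G23670 (0.403) and TIP2 (0.514). Nearest to LTP3 were FLA9 (0.403, at 618 and 206 FPKM), LTP4 (0.415) and LEA4-5 (0.449, at 430.3 and 172 FPKM).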
